A study of Homo sapiens with 4 samples.

Results

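The genes described here are 45 genes of mitosis, whose products build the spindle, form the kinetochores, run the spindle checkpoint or drive entry into and exit from cell division. They were taken by gene symbol from a list of names, and all 45 were found among the 15357 genes of the deposited tables and passed the filter on low counts, as did 11955 genes in all. Expression was compared between RKO cells, a human colorectal cancer cell line, in which CHD7 had been knocked down and control RKO cells. The RKO cells were infected with lentivirus to express a short hairpin RNA (shRNA) stably. The vector group was 2 samples expressing the control shRNA, and the shCHD7_2 group was 2 samples expressing 1 shRNA against CHD7, which encodes a chromatin remodeller. Both groups were grown in Eagle's Minimum Essential Medium with fetal bovine serum, and libraries were made with oligo-dT beads, so polyadenylated RNA was measured. A single hairpin in a single cell line was sequenced, and the effect of that hairpin and the effect of losing CHD7 cannot be told apart. The sources used here do not say that the replicates came from separate cultures, so p-values measure the spread between these samples, which may be technical.

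During mitosis, CDK1 with its cyclins drives cells into division, polo-like and Aurora kinases organise the spindle, and kinetochores attach chromosomes to microtubules. The spindle checkpoint delays separation of sister chromatids until the attachments are made, after which the anaphase-promoting complex marks securin and cyclin B for destruction. Most of these genes are transcribed chiefly in late cell cycle, and many are repressed when the CDK inhibitor p21, encoded by CDKN1A, is induced, which favours assembly of the repressive DREAM complex at their promoters.

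The knockdown was seen in the libraries. CHD7 stood at 85.4 and 91.0 CPM (counts relative to library size, scaled by TMM) in the vector samples and at 55.5 and 50.1 CPM in the shCHD7_2 samples. This was a log2 fold change of -0.74 (SE 0.088, adjusted p = 4.15e-06 by the quasi-likelihood test of edgeR, after Benjamini and Hochberg), or 40.1% less. The libraries held 15734679 and 16068650 estimated counts (vector) and 15749624 and 15771482 (shCHD7_2), with member counts between 60 and 7115 in a sample. Of the 6 epithelial markers, EPCAM, KRT8 and KRT18 had at least 161 counts in every sample. CLDN4 was at 1 to 3 counts, CDH1 was at 0 or 1 count, and KRT19 was not among the genes of the deposited tables. Of the 6 colon markers, CDX2 had 246 to 302 counts, and KRT20 and LGR5 were at 0 or 1 count. CDX1, VIL1 and MUC2 were not among the genes of the deposited tables. Fibroblast markers summed to 1 to 7 counts and endothelial markers to 0 to 3 counts. The leukocyte markers summed to 13423 to 16352 counts, nearly all from CD68, a lysosomal protein that is not restricted to leukocytes.

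CDKN1A rose in the same samples. Its level was 127.7 and 112.5 CPM in the vector samples and 243.5 and 252.1 CPM in the shCHD7_2 samples, a log2 fold change of 1.04 (SE 0.080, edgeR adjusted p = 4.66e-09), or 2.06-fold. Both shCHD7_2 samples were above both vector samples.

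The mitotic genes themselves moved little beside that rise. At an adjusted p under 0.05 by edgeR, 2 of the 45 fell (NUF2 and CDC25B, 4.44% of the members) and 1 rose (MYBL2, 2.22%), where 6.54% of all genes tested were lower and 4.94% higher. The members' shares were thus no larger than those of all genes. With genes of low counts kept in the fit, none of the 3 passed by edgeR. In that fit only 0.884% of all genes were lower and 0.425% higher. None of the members was past a fold of 1.5 in either direction at that threshold by edgeR, DESeq2 or limma, where 1.37% of all genes tested were lower and 1.51% higher by edgeR. At an unadjusted p under 0.05, 13 members were lower (28.9%, against 13.3% of all genes tested) and 3 higher (6.67%, against 12.1%). The log2 fold changes ran from -0.45 to 0.34. A p that misses the threshold does not show that a gene did not differ, so the intervals are given as well. The 95% interval of the log2 fold change lay within 1.5-fold either way for 43 members (95.6%), where it did so for 80.5% of all genes tested, and the exceptions were NUF2 and HMMR. The median SE was 0.084 over the members and 0.096 over all genes tested, so these shares also reflect precision. With 2 samples against 2, a two-sided permutation test cannot give a p below 0.333, so single genes were tested only in the fit over all genes.

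**Figure D1:**
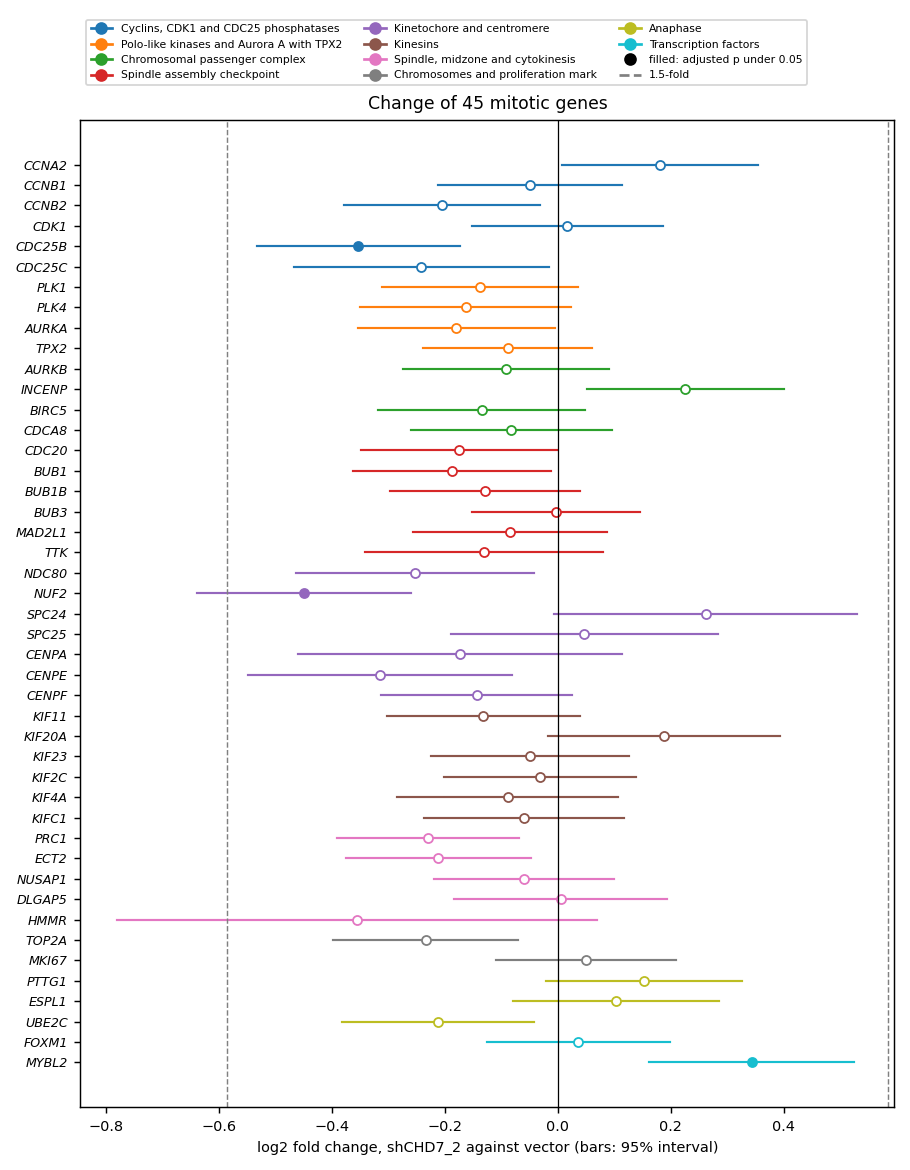
The log2 fold change of each of the 45 mitotic genes (shCHD7_2 against vector, horizontal axis) with its 95% interval as a bar, coloured by role, with filled points for an adjusted p under 0.05 by edgeR and dashed lines at 1.5-fold. The filled points are NUF2 at -0.45, CDC25B at -0.35 and MYBL2 at 0.34, and only the bars of NUF2 and HMMR cross a dashed line.

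More members lay slightly below zero than above it. The log2 fold change was negative for 33 of the 45 (73.3%, against 49.9% of all genes tested) and positive for 12. Their median was -0.09, or 6.16% less, where the median of all genes tested was 0.00 and the middle 50% of all genes ran from -0.13 to 0.13. Of the 45 members, 20 lay inside that band and 25 (55.6%) outside it. In 25 members (55.6%) both shCHD7_2 samples were below both vector samples, which held for 27.3% of all genes tested. In 7 members (15.6%) both were above, against 26.4% of all genes tested, and in 13 the groups overlapped. Scaled by library totals, 18 members had both shCHD7_2 samples below, against 20.9% of all genes. The median absolute log2 fold change of the members was 0.14, and the median absolute log2 difference between replicates was 0.080 in the vector group and 0.060 in the shCHD7_2 group. The fold change compares groups while the replicate difference compares single samples, so their sizes are not directly comparable. The 45 genes together summed to 4454 and 4640 TMM-scaled CPM in the vector samples and to 4339 and 4287 in the shCHD7_2 samples. The groups did not overlap in this sum, nor in summed FPKM (1798 and 1813 in vector, 1767 and 1762 in shCHD7_2). The separation depended on scaling. Summed counts before scaling were 69143 and 73254 (vector) and 69572 and 68411 (shCHD7_2), and these overlapped. In bulk RNA, fewer cells in mitosis and less mitotic mRNA per cell cannot be told apart.

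**Figure D2:**
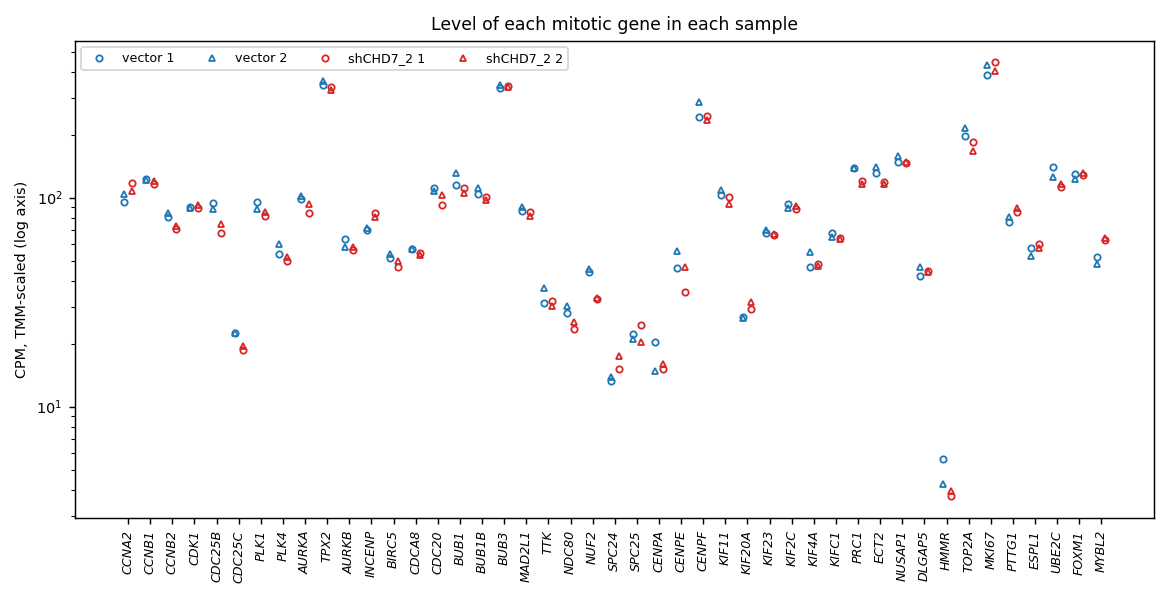
The level of each mitotic gene in each of the 4 samples, in TMM-scaled CPM on a log axis, with vector samples in blue and shCHD7_2 samples in red. Within a gene the 4 points lie close together compared with the distance between genes, and the groups are separate in 32 genes, with shCHD7_2 below in 25 and above in 7.

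Levels between genes were compared in FPKM, which is normalised for gene length. UBE2C, the ubiquitin-conjugating enzyme of the anaphase-promoting complex, was the most abundant member, at 201.5 and 179.9 FPKM in the vector samples and 168.1 and 170.6 FPKM in the shCHD7_2 samples. BUB3, a checkpoint protein, followed at 154.9 and 159.1 FPKM (vector) and 164.2 and 163.0 FPKM (shCHD7_2). PTTG1, or securin, stood at 121.5 and 129.2 FPKM (vector) and 141.6 and 145.5 FPKM (shCHD7_2). The ranges of these 3 genes over the 4 samples did not overlap. At the other end, HMMR, a spindle protein and hyaluronan receptor, was at 1.86 and 1.41 FPKM in the vector samples and 1.28 and 1.36 FPKM in the shCHD7_2 samples. CENPE was at 5.61 and 6.74 FPKM (vector) and 4.44 and 5.79 FPKM (shCHD7_2), and SPC24 at 7.21 and 7.55 FPKM (vector) and 9.72 and 10.55 FPKM (shCHD7_2). HMMR lay below CENPE and CENPE below SPC24 in every sample, while SPC24 could not be ordered against the next gene, ESPL1, whose FPKM ran from 8.15 to 9.52 over the samples.

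Promoter letters linked to late cell cycle transcription were looked up in the RefSeq promoters of GRCh38.p14, from 250 bases before to 50 after the start, on both strands. These were the cell cycle genes homology region (CHR, TTTGAA), which the DREAM and MuvB complexes bind, the CCAAT box (CCAAT), which NF-Y binds, and E2F letters, which were TTCCCGC, its variant form TTGGCGC and the further variant form TTCGCGC. A promoter was matched for 38 of the 45 members, and there was no entry for AURKA, BIRC5, BUB3, TTK, TPX2, FOXM1 and UBE2C. CHR letters were in 26 of the 38 (68.4%), against 9.46% of the 9457 genes tested with a promoter and 15.4% of all 27305 promoters. CCAAT was in 29 (76.3%), against 37.0% of the genes tested and 35.7% of all promoters, and both were in 22 (57.9%), against 4.01% and 6.08%. E2F letters were in 9 (23.7%), against 18.5% and 11.2%. Windows of 30 bases around a CHR are shown for 6 members, with the CHR letters in capitals. They are on the strand of the gene, 5′ to 3′. Of the letters looked up singly, CHR had the share furthest above that of the genes tested, while CCAAT was in more members. PLK1, CCNB2 and CDC20 represent kinases, cyclins and the checkpoint, PRC1 and MKI67 are a midzone protein and the proliferation mark, and NUF2 is a member that fell. Counted from the start, the first CHR base shown was at -29 in PLK1, -29 in CCNB2, -65 in CDC20, -20 in PRC1, -29 in MKI67 and 17 in NUF2, where it was downstream of the start. Only 1 RefSeq start per gene was searched. For NUF2 that start lies inside the gene as GENCODE 29 places it, whose first base is at chr1:163266576. The windows lie at chr16:23678848-23678877 (PLK1, plus strand), chr15:59105105-59105134 (CCNB2, plus), chr1:43358904-43358933 (CDC20, plus), chr15:90994538-90994567 (PRC1, minus), chr10:128126435-128126464 (MKI67, minus) and chr1:163321958-163321987 (NUF2, plus).
PLK1: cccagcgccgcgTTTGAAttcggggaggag
CCNB2: agcgacgcggtaTTTGAAtcctggaacaag
CDC20: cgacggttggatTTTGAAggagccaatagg
PRC1: cccgtggcgcggTTTGAAattttgcggggc
MKI67: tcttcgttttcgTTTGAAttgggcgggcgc
NUF2: ggaggcggcaagTTTGAAaagtgatgacgg
The letters match in this window and say nothing by themselves about binding. The median log2 fold change was -0.13 over the 26 members with CHR letters and -0.04 over the 12 without. For CCAAT the order was the other way, -0.08 over the 29 with it and -0.24 over the 9 without, and for both together the medians were -0.09 over 22 and -0.11 over 16. Of the genes that changed, NUF2 held the letters while CDC25B and MYBL2 did not.

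Of the cyclins, CDK1 and its activating phosphatases, 1 of 6 passed the test. CDC25B, a phosphatase that activates CDK1 at entry into mitosis, fell. It stood at 94.0 and 88.2 CPM in the vector samples and at 67.5 and 75.1 CPM in the shCHD7_2 samples, so both shCHD7_2 samples were below both vector samples. Its log2 fold change was -0.35 (SE 0.087, edgeR adjusted p = 0.00891), or 21.7% less, and the gene lies at chr20:3786772-3806121 (GRCh38, GENCODE 29). The call was lost without vector replicate 1 (edgeR adjusted p = 0.127). CCNA2, the cyclin of S phase and early mitosis, lay the other way, at 94.9 and 103.8 CPM (vector) and 117.1 and 108.0 CPM (shCHD7_2), with a log2 fold change of 0.18 (SE 0.084, edgeR adjusted p = 0.178). CDK1 had a log2 fold change of 0.02 and its mitotic partner CCNB1 of -0.05, with intervals of 0.90 to 1.14 and 0.86 to 1.08 as folds. CCNB2, the second B-type cyclin, and CDC25C, a phosphatase related to CDC25B, had -0.20 and -0.24 and did not pass the test.

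None of the 4 polo-like kinases and Aurora A with TPX2 passed the test by edgeR (1 lower at an unadjusted p under 0.05), though both shCHD7_2 samples were below both vector samples in all 4, as in 27.3% of all genes tested. AURKA, the kinase of centrosomes and spindle poles, was at 98.6 and 101.8 CPM (vector) and 84.1 and 92.8 CPM (shCHD7_2), with a log2 fold change of -0.18 (SE 0.084, edgeR adjusted p = 0.180). TPX2, its activator on microtubules, was at 345.1 and 363.5 CPM (vector) and 339.1 and 327.3 CPM (shCHD7_2), with a log2 fold change of -0.09 (SE 0.072, edgeR adjusted p = 0.481). The log2 fold changes of PLK1, the mitotic kinase, and PLK4, which starts centriole duplication, were -0.14 and -0.16. The 4 intervals of this group together ran from -0.35 to 0.06.

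None of the 4 genes of the chromosomal passenger complex passed by edgeR (1 higher at an unadjusted p under 0.05), and they did not share a direction. INCENP, its scaffold, was at 70.0 and 71.3 CPM in the vector samples and 84.7 and 80.5 CPM in the shCHD7_2 samples, with a log2 fold change of 0.23 (SE 0.084, edgeR adjusted p = 0.0864). Scaled by library totals, INCENP passed the test (edgeR adjusted p = 0.0378). BIRC5, or survivin, was at 51.7 and 54.0 CPM (vector) and 46.5 and 49.9 CPM (shCHD7_2), with a log2 fold change of -0.13 (SE 0.089, edgeR adjusted p = 0.365). INCENP was above the vector samples and BIRC5 below them in both shCHD7_2 samples. AURKB, the kinase of the complex, and CDCA8, or borealin, had log2 fold changes of -0.09 and -0.08.

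None of the 6 spindle checkpoint genes passed by edgeR (2 lower at an unadjusted p under 0.05). BUB1, a checkpoint kinase at kinetochores, was at 115.2 and 130.9 CPM (vector) and 111.2 and 104.9 CPM (shCHD7_2), with a log2 fold change of -0.19 (SE 0.084, edgeR adjusted p = 0.162). BUB3, which brings BUB1 to kinetochores, was at 333.5 and 346.9 CPM (vector) and 341.9 and 337.0 CPM (shCHD7_2), with a log2 fold change of 0.00 (SE 0.072) and overlapping groups. BUB1 was lower in both shCHD7_2 samples, whereas BUB3 lay within 0.90 to 1.11-fold of the vector level by its 95% interval. CDC20, which the checkpoint holds inactive, had -0.18, BUB1B (BubR1) -0.13, the checkpoint kinase TTK -0.13 and MAD2L1 (MAD2) -0.08.

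The kinetochore and centromere group held the gene with the most negative log2 fold change. NUF2, a subunit of the NDC80 complex that binds microtubule ends, stood at 44.3 and 45.7 CPM in the vector samples and at 32.9 and 33.0 CPM in the shCHD7_2 samples. The replicates were close and the groups far apart. NUF2 fell by 0.45 on the log2 scale (SE 0.092, 95% interval -0.64 to -0.26, edgeR adjusted p = 0.00198), or 26.8% less, and the gene lies at chr1:163266576-163355764 (GRCh38, GENCODE 29). The call was lost when genes of low counts were kept in the fit (edgeR adjusted p = 0.0559). The partners of NUF2 in the complex did not pass: NDC80 had a log2 fold change of -0.25, SPC25 of 0.05 and SPC24 of 0.26. SPC24 was at 13.3 and 13.9 CPM in the vector samples and 15.2 and 17.5 CPM in the shCHD7_2 samples (SE 0.13, edgeR adjusted p = 0.208), so it lay above in both, and it passed in limma on log2(FPKM + 1) (adjusted p = 0.0163). CENPE, a kinetochore motor that carries chromosomes to the spindle equator, was at 46.3 and 55.8 CPM (vector) and 35.5 and 46.6 CPM (shCHD7_2), with a log2 fold change of -0.32 (SE 0.11, edgeR adjusted p = 0.0759) and groups that overlapped. The value of CENPE rested on single samples. Without shCHD7_2 replicate 2 its log2 fold change was -0.52 (edgeR adjusted p = 0.000239) and without vector replicate 1 it was -0.44 (edgeR adjusted p = 0.0127), but without shCHD7_2 replicate 1 it was -0.14 (edgeR adjusted p = 0.473) and without vector replicate 2 it was -0.17 (edgeR adjusted p = 0.593). The centromeric histone variant CENPA and the kinetochore protein CENPF had -0.17 and -0.14, with overlapping groups.

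None of the 6 kinesins passed by edgeR (0 lower and 0 higher at an unadjusted p under 0.05). KIF11 (Eg5), which pushes spindle poles apart, was at 103.3 and 109.1 CPM (vector) and 100.2 and 93.7 CPM (shCHD7_2), with a log2 fold change of -0.13 (SE 0.082, edgeR adjusted p = 0.335). KIF20A, a motor of cytokinesis, was at 27.0 and 26.7 CPM (vector) and 29.3 and 31.8 CPM (shCHD7_2), with a log2 fold change of 0.19 (SE 0.099, edgeR adjusted p = 0.242). The groups of each gene were separate, in opposite directions. The centralspindlin motor KIF23, the microtubule depolymerase KIF2C, the chromokinesin KIF4A and the minus-end motor KIFC1 had log2 fold changes of -0.05, -0.03, -0.09 and -0.06.

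Of the 5 spindle, midzone and cytokinesis genes, none passed by edgeR (2 lower at an unadjusted p under 0.05), and the median log2 fold change, -0.21, was the most negative of the 10 role groups. HMMR was at 5.60 and 4.24 CPM in the vector samples and 3.74 and 3.95 CPM in the shCHD7_2 samples, with a log2 fold change of -0.36 (SE 0.20, edgeR adjusted p = 0.289). Its counts, 60 to 87 in a sample, were the lowest of the members and its interval the widest. The log2 fold change of HMMR was -0.14 without vector replicate 1 and -0.54 without vector replicate 2. DLGAP5 (HURP), which stabilises kinetochore fibres, was at 42.1 and 46.4 CPM (vector) and 44.8 and 44.1 CPM (shCHD7_2), with a log2 fold change of 0.01 (SE 0.091, edgeR adjusted p = 0.980) and overlapping groups. PRC1, which bundles midzone microtubules, and ECT2, the exchange factor that starts furrowing, were near the threshold, with log2 fold changes of -0.23 (edgeR adjusted p = 0.0577) and -0.21 (edgeR adjusted p = 0.0877). PRC1 passed without shCHD7_2 replicate 1 and in no other fit that left out 1 sample. NUSAP1, a microtubule-bundling protein, had -0.06.

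TOP2A, the topoisomerase that untangles sister chromatids, was at 197.7 and 216.6 CPM (vector) and 184.2 and 168.1 CPM (shCHD7_2), with a log2 fold change of -0.23 (SE 0.079, edgeR adjusted p = 0.0567). Both shCHD7_2 samples were below both vector samples, and TOP2A passed without shCHD7_2 replicate 1 (edgeR adjusted p = 0.00822) but in no other fit that left out 1 sample. Its log2 fold change over those fits ran from -0.31 to -0.17, with an edgeR adjusted p of up to 0.565. MKI67, which encodes the proliferation mark Ki-67, was at 386.4 and 432.9 CPM (vector) and 443.7 and 404.4 CPM (shCHD7_2), with a log2 fold change of 0.05 (SE 0.077, edgeR adjusted p = 0.738). Its groups overlapped, and its 95% interval was 0.93 to 1.16 as a fold.

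None of the 3 anaphase genes passed by edgeR (1 lower at an unadjusted p under 0.05). UBE2C was at 140.4 and 125.2 CPM (vector) and 112.8 and 116.4 CPM (shCHD7_2), with a log2 fold change of -0.21 (SE 0.082, edgeR adjusted p = 0.0989). PTTG1 was at 76.1 and 80.5 CPM (vector) and 85.0 and 89.1 CPM (shCHD7_2), with a log2 fold change of 0.15 (SE 0.084, edgeR adjusted p = 0.264). The shCHD7_2 samples were below the vector samples for UBE2C and above them for PTTG1, and also above for ESPL1, or separase, the protease that PTTG1 restrains, at 0.10.

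Of the transcription factors that drive mitotic genes, MYBL2 rose and FOXM1 did not pass. MYBL2 (B-Myb), which joins the MuvB complex to activate these genes, stood at 52.2 and 48.0 CPM in the vector samples and at 62.9 and 64.2 CPM in the shCHD7_2 samples, with no overlap. Its log2 fold change was 0.34 (SE 0.088, edgeR adjusted p = 0.0118), or 26.8% more, and the gene lies at chr20:43667019-43716496 (GRCh38, GENCODE 29). The call was lost without vector replicate 2 (edgeR adjusted p = 0.253). FOXM1 was at 130.1 and 123.4 CPM (vector) and 128.2 and 131.7 CPM (shCHD7_2), with a log2 fold change of 0.04 (SE 0.078, edgeR adjusted p = 0.815), and its groups overlapped.

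In neighbouring lists, the shares of genes that fell are to be read against the 6.54% of all genes tested, and the shares that rose against 4.94%. Of 34 other kinetochore, centromere and checkpoint genes, 3 fell (8.82%) and 1 rose (2.94%) at an adjusted p under 0.05 by edgeR, with a median log2 fold change of 0.00. Those that fell were the outer kinetochore scaffold KNL1 (-0.31), the cohesin protector SGO2 (-0.31) and the centromere loading factor OIP5 (-0.59), while SKA2, of a complex that couples kinetochores to microtubules, rose by 0.41. Of 35 other spindle and cytokinesis genes, 3 fell (8.57%) and none rose by edgeR (0 higher at an unadjusted p under 0.05), with a median of -0.07. They were the centrosomal TACC1 (-0.44), the motor KIF15 (-0.44) and HAUS2 (-0.40) of the augmin complex. Of 19 condensin and cohesin genes, 2 fell (10.5%), the condensin subunit SMC2 (-0.47) and the cohesin subunit STAG1 (-0.49), with a median of -0.11. Of 17 anaphase-promoting complex genes none passed by edgeR (0 lower and 1 higher at an unadjusted p under 0.05). Of 18 genes of the DREAM, RB and E2F group, 1 fell and 1 rose (5.56% each). TFDP1 fell by 0.71, with an edgeR adjusted p of 2.23e-06, and E2F7, a repressive E2F, rose by 0.33. TFDP1, the partner of E2F proteins at DNA, was at 141.2 and 133.7 CPM (vector) and 86.4 and 81.6 CPM (shCHD7_2), a larger log2 fold change in size than that of any of the 45 members. Of 26 G1/S genes, 3 fell (11.5%) and 2 rose (7.69%). TYMS (-0.60), GINS1 (-0.60) and SLBP (-0.47), of nucleotide synthesis, replication and histone mRNA, fell, while CCNE1 (0.35) and RRM2 (0.28) rose, with a median of 0.03. The lean below zero was not particular to the 45 members (73.3% negative). The log2 fold change was negative for 89.5% of the condensin and cohesin genes and 65.7% of the other spindle and cytokinesis genes. The share was 50% of the other kinetochore, centromere and checkpoint genes and 46.2% of the G1/S genes. It was 44.4% of the DREAM, RB and E2F group and 35.3% of the anaphase-promoting complex genes.

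Among the mitotic genes that fell, short letters in the 3′ UTR recurred. The word AGCTATT, the overlapping word GAAGCTA and the overlapping word GCTATTA were taken from an earlier result of these data, in which genes lower in shCHD7_2 held them more often, so their presence in genes that fell is no independent evidence. They were looked up on the transcript strand in the longest 3′ UTR of each gene in GENCODE 29 (GRCh38). At least 1 word was in 7 of the 45 members (15.6%), namely CDC25B, BUB3, MAD2L1, NUF2, KIF11, TOP2A and FOXM1, against 2613 of 11693 genes tested (22.3%). Both members that fell held a word, MYBL2 held none, and 5 of the 42 that did not pass held one (11.9%). In the 5 other lists of kinetochore, spindle, condensin and cohesin, anaphase-promoting complex and DREAM, RB and E2F genes, all 9 genes that fell held a word, 1 of the 2 that rose did, and 19 of 112 that did not pass did (17.0%). Over all genes tested with a 3′ UTR, a word was in 54.8% of 767 lower genes, 13.6% of 583 higher genes and 20.4% of 10343 that did not pass. The sites in NUF2 and CDC25B are shown with 11 bases on either side and the word in capitals, since these are the members that fell. They lie at chr1:163355656-163355684 (NUF2, plus strand) and chr20:3805949-3805977 (CDC25B, plus strand).
NUF2: ataacttgtgcAGCTATTcatgtctctac
CDC25B: ttagggtttggAGCTATTcaagaggaaat
The 3′ UTR of NUF2 is 295 bases long, and 3.65% of 821 genes tested with a 3′ UTR of similar length held a word. For CDC25B, with 1160 bases, the share was 14.6% of 1698 genes. The 5 other members with a word did not pass. Their log2 fold changes were -0.23 for TOP2A, -0.13 for KIF11, -0.08 for MAD2L1, 0.00 for BUB3 and 0.04 for FOXM1, and MAD2L1 held all 3 words. The median log2 fold change was -0.13 over the 7 members with a word and -0.09 over the 38 without, and whether the words play a part in the lower levels was not tested.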

How the data were processed

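RNA-seq of 4 RKO samples (2 vector, 2 shCHD7_2) was used, grouped by the sample titles. The authors deposited estimated counts per gene, which were not normalized and need not be whole, and FPKM values, which the authors normalized for gene length and library size. The submitters' processing notes name Bowtie2, RSEM, DESeq2 and hg38, with versions and annotation not given in the sources used here. RSEM divides reads between similar genes, so close copies can exchange counts. Strand handling is not given in the sources used here, so reads of overlapping antisense genes cannot be told apart.

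Counts were rounded to whole numbers, filtered with filterByExpr, scaled by TMM and tested over 11955 genes with the quasi-likelihood test of edgeR 4.0.16 (R 4.3.3), with Benjamini-Hochberg adjustment and a threshold of 0.05. The biological coefficient of variation was 0.0579. SEs came from the F statistic, and 95% intervals from its degrees of freedom. Intervals cover the spread between these samples. Replicates differed beyond sampling noise (chi-square per gene 3.94 and 6.06) and were counted separately. The main edgeR fit was tested on simulated counts, but not every step was.

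The members and lists were chosen with earlier results of these data known. Members were named with values in every sample when they passed, when they had the lowest or highest log2 fold change of a role group, or when they were among the 3 highest or 3 lowest in mean FPKM; list genes were named when they passed, at most 6 per list. Values of 1 gene and 1 list are left out of the text. Alternatives were DESeq2 size factors, library totals, DESeq2 1.42.0, other filters, limma 3.58.1 on log2(FPKM + 1) or log2(FPKM + 0.1), a replicate block and leaving out each sample. Promoters came from RefSeq (GRCh38.p14) and 3′ UTRs from GENCODE 29.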

Additional observations from a re-analysis of the deposited data

How the results depend on the processing

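The median log2 fold change of the members stayed below that of all genes under every alternative run, by 0.07 to 0.12, and none of the members passed at 1.5-fold in any of them. The median itself, -0.092, was -0.048 with library totals, -0.048 and -0.0484 in limma on FPKM with a pseudocount of 1 and 0.1, -0.048 in limma without a filter, and -0.118 to -0.0778 when 1 sample was left out. The count of members lower (2) was 0 without a filter in edgeR and limma, against 0.884% and 0.0391% of all genes. It was 2 to 4 when 1 sample was left out, where 2.96% to 8.03% of all genes were lower. The count of 4 came without shCHD7_2 replicate 1, the fit with 8.03% of all genes lower. The count higher (1) was 2 with library totals (INCENP and MYBL2), where 7.34% of all genes were higher. In limma with a pseudocount of 1 or 0.1 it was 2 (SPC24 and MYBL2), against 6.14% and 6.04% of all genes. Without a filter it was 0 in edgeR and limma, against 0.425% and 0.013% of all genes. Without a filter more genes enter the fit and the adjustment (15044 in edgeR, 15357 in limma). In limma without a filter CHD7 was at -0.51 (adjusted p = 0.127) and CDKN1A at 1.08 (adjusted p = 0.109), so neither passed there. NUF2 lost its call in edgeR and limma without a filter (adjusted p = 0.0559 and 0.112), as did CDC25B (0.109 and 0.167) and MYBL2 (0.101 and 0.135). Signs changed for BUB3, to 0.0408 with library totals, 0.0002 at a mean count of 50, and 0.0591, 0.0594 and 0.0591 in limma. Leaving out 1 sample gave log2 fold changes of -0.0329 to 0.025 for BUB3 (positive without vector or shCHD7_2 replicate 2), -0.0636 to 0.0759 for DLGAP5 and -0.0314 to 0.1337 for MKI67 (both negative without vector or shCHD7_2 replicate 1), and -0.0014 to 0.0734 for FOXM1 (negative without vector replicate 2). Of the values of named genes under alternatives, leaving aside the crossed pairing, 270 kept direction and side of the threshold, 6 passed anew, 11 lost their call and 12 changed sign. The cause of these changes was not tested. Fits without a sample assume that the lone sample of an arm varies like the other group.

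Both groups carry replicate numbers 1 and 2, but nothing says what they pair. With the replicate block, 1 member was lower (NUF2) and 0 were higher by edgeR, where 3.66% of all genes were lower and 2.65% higher. CDC25B and MYBL2 had adjusted p = 0.0661 and 0.0833 there. Deviations of same-numbered samples correlated at -0.25 over the genes tested, and a crossed pairing, chosen after seeing the data, called 17 members lower (37.8%, against 16.6% of all genes) and 5 higher (11.1%, against 14.8%). Depth limits HMMR most, with 60 to 87 counts in a sample.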
